A study of Mus musculus with 8 samples.

Results

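The genes described here encode the mechanotransduction channel complex and the tip link of the sensory hair cell. They are 10 genes named by symbol: the channel subunits and partners Tmc1, Tmc2, Tmie, Lhfpl5 and Cib2, the delivery factor Tomt, the tip link cadherins Pcdh15 and Cdh23, and the scaffolds Ush1c and Ush1g. All 10 were found among the 41079 genes of the deposited count tables, and all 10 passed the low-count filter that left 20581 tested genes. Total RNA came from the organ of Corti, the hearing epithelium inside the mouse cochlea, dissected by hand under magnification, and was depleted of ribosomal RNA and sequenced at postnatal day 0 (P0). The design sets 4 wildtype libraries against 4 labelled Prox1 knock-out (Emx2-cre; floxed-Prox1), in which Cre recombinase made under control of the Emx2 locus acts on a floxed Prox1 gene. The labels do not say whether the wildtype animals carried Cre or a floxed allele, how many animals a library holds, or whether any animal gave more than 1 library. The p-values therefore describe the scatter among these libraries, part of which may be technical.

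Hair cells turn deflection of their stereocilia into current. A tip link, made of cadherin-23 at its upper end and protocadherin-15 at its lower end, runs from the tip of each shorter stereocilium to the side of its taller neighbour. Tension in the link opens a channel at the lower end, where TMC1 and TMC2 form the pore and TMIE, LHFPL5 and CIB2 are needed with them, while harmonin (Ush1c) and SANS (Ush1g) anchor the upper end. In the mouse cochlea Tmc2 is made early and transiently, and Tmc1 takes over as hair cells mature.

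Library totals ran from 32863533 to 42318233 counts in wildtype and from 29908965 to 32613549 counts under the knockout label (two-sided exact permutation test, p = 0.0286, the lowest value that 4 against 4 can give). Prox1 itself had 111 ± 4.29 CPM in wildtype and 139 ± 5.71 CPM under the knockout label (SD, 4 libraries each). Its counts were thus higher, not lower, under that label. Counts over the whole gene do not show whether only a floxed part was lost, and this was not tested. Every direction is therefore given for libraries as labelled. CPM are counts-per-million after the libraries were scaled by TMM, a trimmed mean of ratios. Of 20 hair cell marker genes 19 were tested, led by Myo6 at 260.3 ± 14.4 CPM, Otof at 114 ± 18.4 CPM and Rasd2 at 93.1 ± 8.70 CPM in wildtype (SD, n = 4). The marker not tested was Ocm, a calcium-binding protein gene of outer hair cells, with 3 to 7 counts a library. The tissue thus held hair cell transcripts in every library, and because the RNA is of whole tissue, fewer hair cells and less RNA per hair cell cannot be told apart.

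None of the 10 genes differed between the groups in a quasi-likelihood fit by edgeR, adjusted by Benjamini-Hochberg across the 20581 genes, with adjusted p from 0.647 to 0.923. The same test called 19 of 20581 genes, 0.0923% of them. At an unadjusted p under 0.05 it found 1 of the 10, Pcdh15, against 7.55% of all tested genes. DESeq2 and limma-voom also called 0 of the 10, and each put 1 under an unadjusted p of 0.05, Tmc2 in DESeq2 and Pcdh15 in limma-voom, beside 4.9% and 7.57% of all genes they tested. The wildtype and knockout values overlapped for each of the 10 genes, whereas 3.69% of all tested genes had groups that did not overlap. The median log2 fold change of the 10 was -0.10, with 6 below 0 and 4 above, beside a median of 0.00 over all tested genes.

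**Figure D1:**
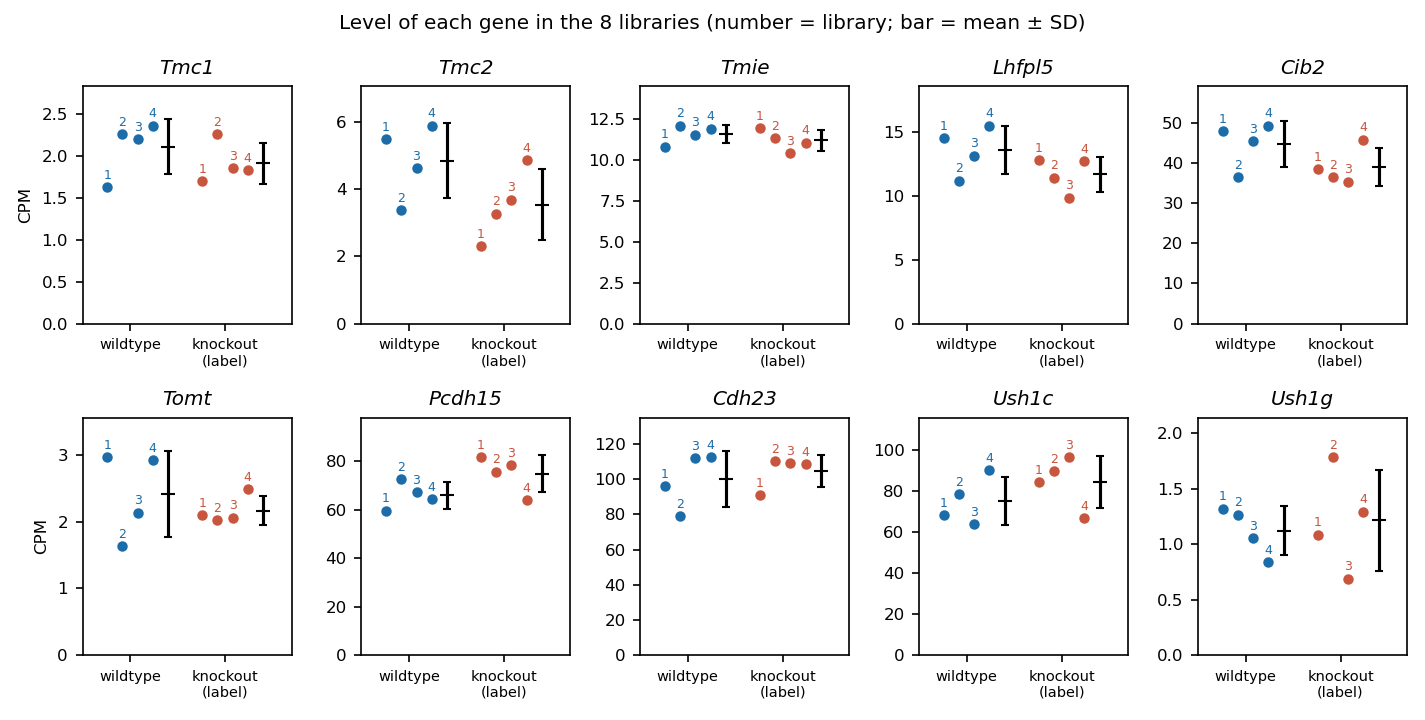
Level in CPM (vertical axis, linear, from 0) of the 10 genes in each of the 4 wildtype and 4 knockout-labelled libraries; numbers are library numbers and bars show the mean ± SD. The groups overlap in every panel, with Tmc2 from 3.36 to 5.88 CPM in wildtype and from 2.31 to 4.86 CPM under the knockout label.

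The channel pore genes had few counts. Tmc2 had 5.48, 3.36, 4.62 and 5.88 CPM in wildtype, libraries 1 to 4. In the knockout-labelled libraries 1 to 4 it had 2.31, 3.27, 3.68 and 4.86 CPM. The knockout-labelled libraries 1, 2 and 3 were below wildtype libraries 1, 3 and 4, wildtype library 2 lay among them, and the knockout-labelled library 4 lay among the wildtype values. The log2 fold change was -0.45 ± 0.23 (SE), the lower side being the knockout label, and its 95% interval ran from -0.94 to 0.04 (adjusted p = 0.647 by edgeR). Without knockout-labelled library 4 it was -0.64, and without knockout-labelled library 1 -0.30, and neither passed. Tmc1, the subunit of mature hair cells, had 1.63, 2.26, 2.195 and 2.36 CPM in wildtype and 1.696, 2.26, 1.85 and 1.83 CPM under the knockout label. Its groups spanned nearly the same range, and its fitted difference of -0.14 ± 0.18 (log2, SE) had a 95% interval from -0.53 to 0.25. It rested on 50 to 98 counts a library, and its coefficient of variation, 15.5% in wildtype and 12.7% under the knockout label, was close to the 11.9% that counting alone gives.

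Per length of annotated exon, Tmc2 exceeded Tmc1 in all 8 libraries. The ratio of CPM per kilobase was 7.52, 3.33, 4.71 and 5.58 across wildtype libraries 1 to 4, and 3.04, 3.24, 4.44 and 5.94 in the knockout-labelled libraries 1 to 4. It averaged 5.28 ± 1.76 in wildtype and 4.16 ± 1.33 under the knockout label (SD, 4 libraries each), so the groups overlapped and their difference was smaller than the spread within either. With the longest coding transcript in place of all exons, the wildtype ratio was 2.99.

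Tmie, a membrane protein that couples the pore to the tip link, varied least of the 10. It had 10.8, 12.1, 11.6 and 11.9 CPM in wildtype and 11.9, 11.4, 10.4 and 11.1 CPM under the knockout label. The coefficient of variation was 4.93% in wildtype and 5.57% under the knockout label, against 5.02% from counting alone. The log2 fold change was -0.05 ± 0.08 (SE), and the 95% interval, from -0.23 to 0.13, was the narrowest among the channel genes.

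Lhfpl5, a tetraspan protein that binds protocadherin-15, and Cib2, a calcium-binding partner of the TMC proteins, followed each other from library to library. Lhfpl5 had 14.5, 11.2, 13.1 and 15.5 CPM in wildtype and 12.8, 11.4, 9.87 and 12.7 CPM under the knockout label. Cib2 had 48.0, 36.5, 45.5 and 49.3 CPM in wildtype and 38.5, 36.5, 35.4 and 45.8 CPM under the knockout label. In both, wildtype library 4 was highest, knockout-labelled library 3 lowest, and wildtype library 2 within the range of the knockout-labelled libraries. The log2 fold changes were -0.21 ± 0.12 (95% interval -0.47 to 0.04) for Lhfpl5 and -0.20 ± 0.10 (-0.42 to 0.02) for Cib2, with adjusted p of 0.652 and 0.647 by edgeR. In these 2 genes the spread within wildtype, 13.8% and 12.8%, was well above the 4.77% and 2.62% that counting gives. This was not particular to them. Cdh23 had 15.9% against 1.68%, Ush1c 15.6% against 1.90%, Pcdh15 8.32% against 2.02% and Tmc2 23.1% against 8.28%.

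Tomt, a transmembrane O-methyltransferase needed to bring the TMC proteins to the hair bundle, had 2.97, 1.63, 2.14 and 2.93 CPM in wildtype and 2.10, 2.02, 2.06 and 2.49 CPM under the knockout label. Its wildtype values enclosed all those of the knockout-labelled libraries, and its log2 fold change was -0.15 ± 0.21 (SE; 95% interval -0.60 to 0.30). In the GENCODE M21 annotation, which is of the older build GRCm38, 69.3% of the exon bases of Tomt overlap exons of Anapc15 on the opposite strand. Anapc15 had 10.2 CPM in wildtype and 9.99 CPM under the knockout label. Whether reads were counted by strand is not given in the sources used here, and without strand the reads of such a pair cannot be told apart, so the level of Tomt is uncertain. Smaller overlaps touch Cib2, with Sh2d7 over 15.8% of its exon bases, and Tmie, with Als2cl over 7.89%.

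The tip link cadherins had fitted values above 0, and the sign of Cdh23 turned when wildtype library 2 was left out or the sex or stria score was a covariate. Pcdh15, at the lower end of the link, had 59.6, 72.7, 67.3 and 64.4 CPM in wildtype and 81.7, 75.8, 78.3 and 63.9 CPM under the knockout label. Knockout-labelled libraries 1, 2 and 3 were above all wildtype libraries, and knockout-labelled library 4 was below all but wildtype library 1. The log2 fold change was 0.18 ± 0.08 (SE; 95% interval 0.01 to 0.36), higher under the knockout label. The adjusted p by edgeR was 0.647 (0.0421 before adjustment). Without knockout-labelled library 4 the value was 0.25, with an adjusted p of 0.215, and over all alternatives that gave an adjusted p it ran from 0.215 to 1.00. Cdh23, at the upper end, had 96.2, 79.0, 112 and 113 CPM in wildtype and 91.0, 110.1, 109 and 109 CPM under the knockout label. Wildtype library 2 and knockout-labelled library 1 were the lowest, and the log2 fold change was 0.07 ± 0.10 (SE; 95% interval -0.16 to 0.30).

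The ratio of Pcdh15 to Cdh23 in CPM per kilobase was 0.441, 0.656, 0.428 and 0.408 across wildtype libraries 1 to 4. It was 0.640, 0.490, 0.511 and 0.419 in the knockout-labelled libraries 1 to 4. Pcdh15 was below Cdh23 in all 8 libraries on this scale. With the longest coding transcript the wildtype mean was 0.826, and Pcdh15 then exceeded Cdh23 in wildtype library 2 and knockout-labelled library 1, so the order of these 2 genes depends on the length used. Per exon base, the means, 0.483 ± 0.116 and 0.515 ± 0.0922 (SD, 4 libraries each), differed by less than the spread within a group.

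The scaffold genes differed widely in level per length, as given further on. Ush1c had 68.4, 78.4, 64.0 and 90.4 CPM in wildtype and 84.4, 89.8, 96.7 and 66.9 CPM under the knockout label. As with Pcdh15, knockout-labelled library 4 lay with the low wildtype libraries while the other 3 labelled knockout were high. The log2 fold change was 0.17 ± 0.12 (SE; 95% interval -0.09 to 0.42) (edgeR, adjusted p = 0.707). Ush1g had 1.32, 1.27, 1.05 and 0.836 CPM in wildtype and 1.09, 1.78, 0.688 and 1.29 CPM under the knockout label. It rested on 23 to 60 counts a library, for which counting alone gives a coefficient of variation of 15.7%. Its observed coefficient of variation was 19.7% in wildtype and 37.6% under the knockout label. The highest and lowest values of Ush1g both belonged to knockout-labelled libraries. The 95% interval of its log2 fold change of 0.11 ± 0.28 (SE) ran from -0.50 to 0.72, the widest of the 10. A change of moderate size was thus not detectable with these counts and this scatter between libraries.

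**Figure D2:**
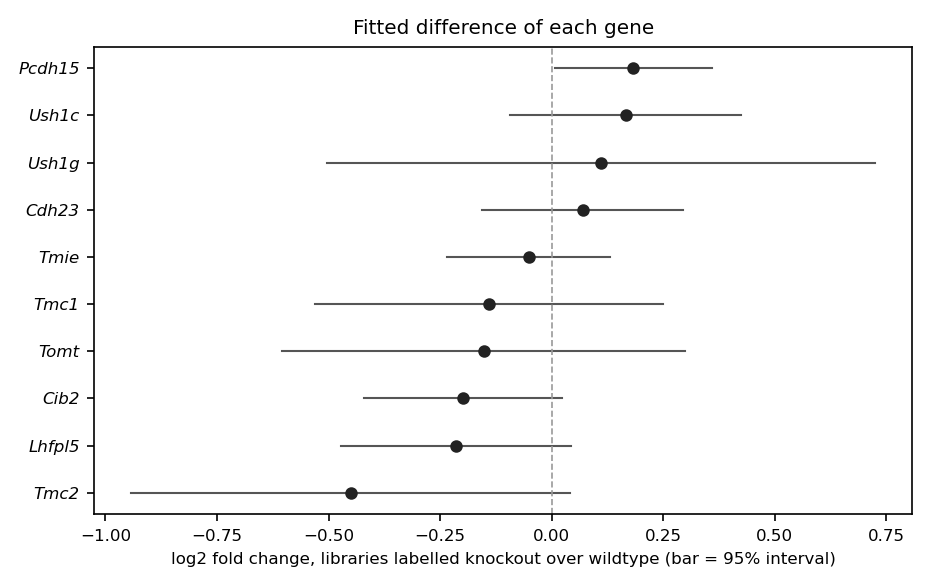
Log2 fold change of the knockout-labelled libraries over wildtype (horizontal axis) for each of the 10 genes, with points for the fitted value and bars for the 95% interval of edgeR's fit. The interval of Pcdh15, 0.01 to 0.36, is the single one that does not include 0, and no gene passed after adjustment over all tested genes.

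Ordered by level per kilobase of exon, Cib2 came first, with 31.3 ± 4.02 CPM per kilobase in wildtype, and Ush1c second, with 19.6 ± 3.05 (SD, n = 4). On this scale their wildtype values did not overlap. With the longest coding transcript Ush1c had 24.5 CPM per kilobase in wildtype, Cib2 stayed at 31.3, and their wildtype values overlapped. Cdh23, at 5.90 ± 0.940, and Lhfpl5, at 5.69 ± 0.783 CPM per kilobase, did not differ beyond their spread. Tmie followed at 3.75 ± 0.185, Pcdh15 at 2.78 ± 0.231, Tmc2 at 1.504 ± 0.347 and Tomt at 0.846 ± 0.227 CPM per kilobase. Ush1g, at 0.338 ± 0.0667, and Tmc1, at 0.293 ± 0.0456, were lowest and overlapped. The lengths come from GENCODE M21 on GRCm38, and the place of Pcdh15 depends on them, since its 41 annotated transcripts cover 23773 exon bases but the longest coding one has 9104. With the longest coding transcript, Pcdh15 had 7.25 CPM per kilobase and moved above Tmie at 4.14, and Ush1g fell below Tmc1.

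**Figure D3:**
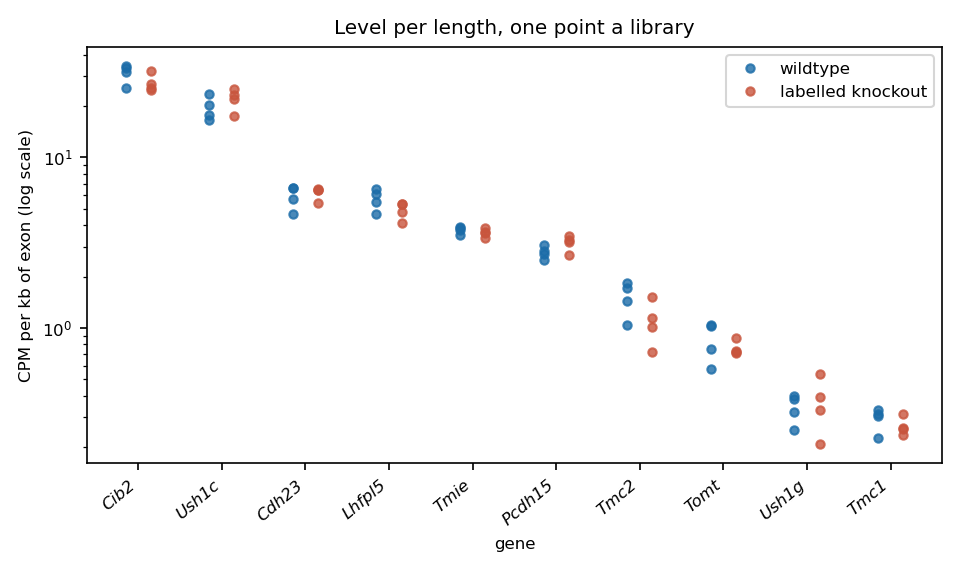
CPM per kilobase of annotated exon (vertical axis, log scale) for the 10 genes, with one point a library, wildtype on the left and labelled knockout on the right of each gene. Cib2 at 31.3 and Ush1c at 19.6 CPM per kilobase in wildtype stand above the others, and Ush1g and Tmc1 are lowest.

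Several of the genes deviated together across libraries. A score that holds none of the 10 genes, the mean log2 CPM of the 19 tested hair cell markers, stood at 3.96 ± 0.10 for wildtype and 3.88 ± 0.09 for the knockout label (SD, 4 libraries each), a difference of -0.08 (two-sided exact permutation test, p = 0.286, or 0.571 adjusted by Benjamini-Hochberg across 8 marker lists). The score was highest in wildtype library 4, at 4.08, and lowest in knockout-labelled library 3, at 3.77. Tmc2, Cib2 and the score were above their own 8-library mean in wildtype libraries 1, 3 and 4 and in knockout-labelled library 4, and below it in the other 4, while Pcdh15 deviated the opposite way in each of the 8 libraries. The side of the mean thus matched the label in 6 of 8 libraries, and wildtype library 2 and knockout-labelled library 4 were the others. Lhfpl5 and Tomt had the same signs as Cib2, except that Lhfpl5 was at 0.03 in knockout-labelled library 1 and Tomt at -0.08 in wildtype library 3. This grouping was made after the values were seen and has no test.

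**Figure D4:**
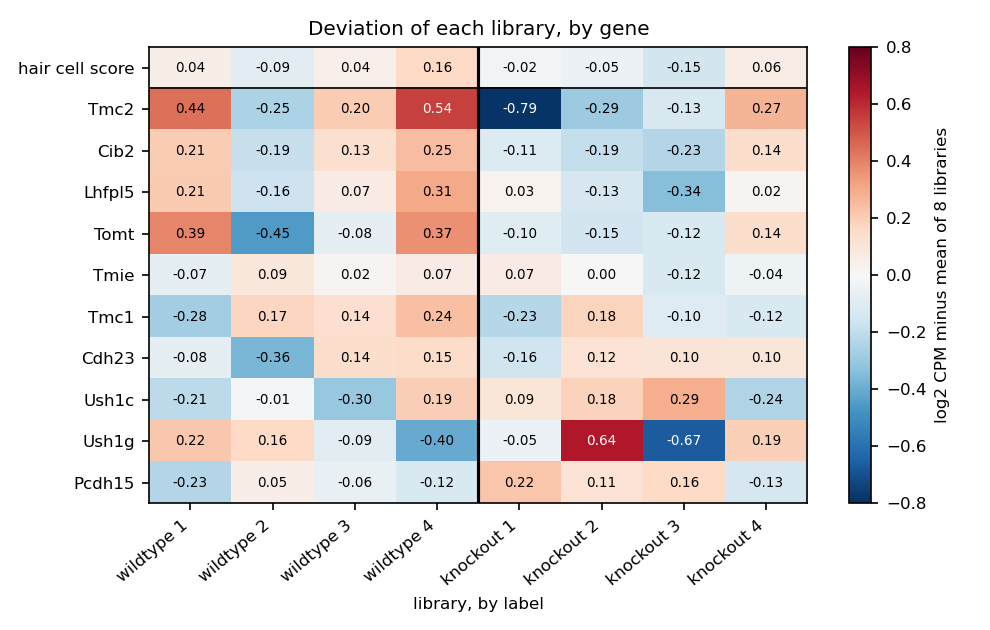
Deviation of each library (columns) from the mean of the 8 libraries in log2 CPM, for the hair cell marker score and the 10 genes (rows), with the value printed in each cell. Tmc2, Cib2, Lhfpl5 and Tomt are above 0 in wildtype libraries 1 and 4, where Pcdh15 is at -0.23 and -0.12. They are also above 0 in knockout-labelled library 4, where Pcdh15 is at -0.13.

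Subtracting the hair cell score from log2 CPM narrowed the spread of some genes and widened that of others. For Cib2 the SD over the 8 libraries fell from 0.20 to 0.11, for Lhfpl5 from 0.21 to 0.12, for Tomt from 0.28 to 0.22 and for Tmc2 from 0.45 to 0.39. For Pcdh15 it was 0.16 before and 0.24 after, and for Ush1c 0.23 and 0.28. With the score as a covariate in edgeR's fit, the log2 fold change was -0.23 ± 0.22 for Tmc2, -0.07 ± 0.09 for Lhfpl5 and -0.06 ± 0.07 for Cib2. It was 0.11 ± 0.08 for Pcdh15, 0.06 ± 0.20 for Tomt, 0.12 ± 0.14 for Ush1c and 0.11 ± 0.31 for Ush1g. Tmc1, at -0.14 ± 0.20, and Tmie, at -0.04 ± 0.09, hardly moved, and Cdh23 moved away from 0, to 0.16 ± 0.11. None of the 10 passed. The sex-linked genes moved with the label too. Under the knockout label the log2 fold change was 0.49 for Ddx3y, 0.50 for Eif2s3y, 0.52 for Kdm5d, 0.64 for Uty and -0.42 for Xist. Each had overlapping groups. At an unadjusted p under 0.05 edgeR found 5 of 5, and DESeq2 and limma-voom each found 4 of 5, without Xist. The shares of all genes they tested were 7.55%, 4.9% and 7.57%. After adjustment each tool called 0 of the 5. All depend on the mix of sexes in a library, so they are not 5 separate results. Xist, at 563 to 1293 CPM, and Uty, at 16.1 to 43.1 CPM, were both counted in all 8 libraries, so each held RNA of both sexes. With a sex score as a covariate, formed from these 5 sex-linked genes, the log2 fold change of Tmc2 was -0.92 ± 0.23 and that of Cib2 -0.38 ± 0.11. That of Lhfpl5 was -0.38 ± 0.14 and that of Pcdh15 0.30 ± 0.10. Unadjusted p by edgeR was 0.00244, 0.0066, 0.0223 and 0.0115 in that order, and adjusted p 0.628, 0.685, 0.769 and 0.733. The rest of the 10 were not under 0.05 before adjustment. The share of all genes under 0.05 was not counted for this fit.

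The upstream sequence is shown for Cib2, which had the first pattern, and for Pcdh15, which went the other way. It is also shown for Tomt, which shared the first pattern except in wildtype library 3. Of the 10 genes, 8 had an entry in the RefSeq promoter table of GRCm38.p6, an older build than the GRCm39 of the counts, and Tomt had an entry for each of its 2 starts. Each stretch is written 5′ to 3′ on the strand of the gene, positions are counted from the annotated start, and no exon of GENCODE M21 overlaps any of the 3 stretches. The start used for Pcdh15 lies inside the gene that GENCODE M21 annotates, at chr10:73099342-74649737. Its stretch is therefore not upstream of the whole gene. Capitals mark the E-box CAGCTG, a palindrome read alike on both strands, of the class bound by basic helix-loop-helix factors such as ATOH1, which specifies hair cells. The positions printed were set gene by gene, and those for Tomt take in its CAGCTG at -82. The first start of Tomt had none in its 250 upstream bases, nor had Cib2 or Pcdh15.
Cib2, chr9:54560321-54560440, minus strand, positions -250 to -131: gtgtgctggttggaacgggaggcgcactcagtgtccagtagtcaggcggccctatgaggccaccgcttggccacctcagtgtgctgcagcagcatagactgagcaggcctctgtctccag
Tomt, second start, chr7:101903816-101903935, minus strand, positions -150 to -31: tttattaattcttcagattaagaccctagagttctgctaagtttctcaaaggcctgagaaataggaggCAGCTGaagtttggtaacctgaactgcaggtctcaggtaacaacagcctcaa
Pcdh15, chr10:73821617-73821736, plus strand, positions -250 to -131: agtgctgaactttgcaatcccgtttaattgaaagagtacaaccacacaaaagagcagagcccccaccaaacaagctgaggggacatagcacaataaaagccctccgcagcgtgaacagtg

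In the 250 bases upstream of the start, CAGCTG was present in 3 of 9 promoters of these genes, those of Tomt at its second start, Tmie and Lhfpl5. It was present in 13.0% of all 32851 promoters of the table. The E-box CAGATG, with its reverse complement CATCTG, was in 0 of the 9 and in 14.4% of all promoters, and the A/T-rich ATAATTA, with TAATTAT, in 0 of the 9 and 2.50% of all. These matches are descriptions of letters in a window, which for Pcdh15 and the second start of Tomt lies wholly inside the annotated gene.

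Other genes of the hair bundle and of the transduction apparatus were read from a list of 30, of which 29 were tested and 0 were called in either direction by edgeR, DESeq2 or limma-voom. At an unadjusted p under 0.05 edgeR found 4 of 29, DESeq2 5 of 30 and limma-voom 3 of 29, against 7.55%, 4.9% and 7.57% of all genes that each tool tested. The list had 19 genes below 0 and 10 above, with a median log2 fold change of -0.06. The smallest p belonged to Myo1c, an unconventional myosin studied for adaptation of the transduction current. Myo1c had 49.0, 49.0, 51.3 and 47.9 CPM in wildtype and 42.4, 46.1, 42.4 and 45.4 CPM under the knockout label, so that all wildtype libraries were higher, and edgeR gave -0.16 ± 0.05 (SE) on the log2 scale, adjusted p = 0.573. Clrn2, named here after its values were seen, was the other gene of this list with groups that did not overlap, at 0.889 ± 0.0972 and 0.671 ± 0.0507 CPM (SD, 4 libraries each), which makes 2 of 29 beside 3.69% of all tested genes. Myo15a, the motor that carries growth factors of stereocilia to their tips, had 24.6, 31.3, 22.5 and 25.8 CPM in wildtype and 36.3, 39.4, 37.1 and 22.8 CPM under the knockout label. For Myo15a, Pcdh15 and Ush1c alike, knockout-labelled library 4 was the lowest of its group. Cib3, a relative of Cib2, was not tested, with 0 to 5 counts a library.

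The genes whose deviations over the 8 libraries were most like the mean of the 10 were sought among 7241 tested genes whose average log2 CPM reached 2, with an SD at least that of this mean, 0.10. Likeness was measured as the root-mean-square difference of centred log2 CPM over 8 libraries. The closest was Serinc5, a lipid scramblase gene of the plasma membrane, at 0.033, followed by Gal3st1, a sulfotransferase that makes sulfatide, at 0.0388, Ttyh2 at 0.0389, Mrpl20 at 0.0396 and Sec61g at 0.044. Cited4, Pdlim2, Plekhh3, Ankrd42 and Slc12a4 were next, and the last of them had 0.0512. None of these 10 is on the hair cell marker list. The mean weighted each gene alike, so low-count genes bear on it as much as abundant ones. Ush1g, on 23 to 60 counts, deviated by 0.64 in knockout-labelled library 2 and by -0.67 in knockout-labelled library 3. The likeness therefore rests in part on the scatter of a low-count gene.

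Markers of other cell types were measured beside these genes. The mean log2 CPM of a list, knockout-labelled libraries minus wildtype, differed by -0.84 for stria and melanocytes (9 of 10 tested genes below 0), -0.27 for blood and endothelium (9 of 10) and -0.14 for mesenchyme (8 of 10). It differed by -0.10 for spiral ganglion neurons, -0.04 for Schwann and satellite glia, -0.02 for supporting cells and 0.04 for vestibular non-sensory and roof genes. On the scale of summed CPM, which the most abundant markers lead, the log2 difference was -0.13 for stria and melanocytes (1672 to 2025 CPM in wildtype, 1552 to 1851 CPM under the knockout label), -0.42 for blood and endothelium, -0.20 for mesenchyme and 0.00 for spiral ganglion neurons. Adjusted p over the 8 lists ran from 0.343 to 0.657 by the two-sided exact permutation test of the mean log2 CPM, a test that could not go below 0.229 for 1 list alone. Of the 10 tested stria and melanocyte genes, 6 had an unadjusted p under 0.05 by edgeR, beside 7.55% of all tested genes. DESeq2 had 8 of 12 and limma-voom 5 of 10, beside 4.9% and 7.57% of all genes they tested. After adjustment DESeq2 called 2 of this list, and edgeR and limma-voom called 0. For blood and endothelium 6 of 10 were under 0.05 by edgeR, 2 of 10 by DESeq2 and 4 of 10 by limma-voom, with 0 called. The part of these markers in the results above was not tested beyond the fits given. The stria score was 5.08 and 4.74 for wildtype libraries 1 and 3, against 3.47 to 4.36 among the other 6. Without the wildtype libraries 1 and 3 the log2 fold change was -0.38 for Tmc2, -0.14 for Cib2, -0.19 for Lhfpl5 and 0.13 for Pcdh15, and none of the 10 genes passed.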

How the data were processed

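For each of the 8 libraries the deposited tables hold raw counts per gene, per the file headers, beside the authors' mean (a signal) and SD of each group. Per the submitters' processing notes, the tools were HISAT2 (2.2.1), with build GRCm39, beside FastQC (0.12.1), cutadapt (4.3), DESeq2 and featureCounts. Annotation, strand and multi-mapping settings were not given in the sources used here. In log2 units, the authors' deposited DESeq2 table gives a log2 fold change with its SE, a Wald score and a p-value; a DESeq2 rerun gave the same log2 fold changes to 2 decimals for the 10 genes.

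Genes were kept by filterByExpr (minimum count 10), scaled by TMM and fitted with edgeR 4.0.16 (R 4.3.3) by quasi-likelihood, with the genotype label as sole factor. Adjustment (Benjamini-Hochberg) ran across every tested gene at a threshold of 0.05. An SE is the fold change divided by the root of F. Alternatives were DESeq2 1.42.0, limma-voom (limma 3.58.1), other scalings and filters, covariates, a replicate block and omitted libraries. No pair of libraries of the same group agreed within sampling noise (lowest chi-square per degree of freedom 10.7), and pairs across groups were not checked. The 10 genes and all lists were chosen with earlier results of these data known. Named genes are the 10, the 3 of smallest p among hair bundle genes and among relatives, relatives by level, up to 3 markers of highest CPM in a list (printed for hair cells), and the 10 most alike; a result for 1 gene that this rule names is not reported here. Clrn2, Cib3, Ocm and the sex-linked genes were named after their values were seen.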

Additional observations from a re-analysis of the deposited data

Results flagged for a closer look

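Of 28 checks for a library far from the rest of its group, 2 exceeded the limit, and chance flags about 1 in 20 groups. The gap between the lowest library and its nearest neighbour was 0.926 of the whole range for Cdh23 under the knockout label, where library 1 had 91.0 CPM and the others 109 to 110.1 CPM. Without that library the log2 fold change of Cdh23 was 0.13. For the log2 ratio of Pcdh15 to Cdh23 in wildtype, the gap was 0.833 of the range. There library 2 had a ratio of 0.920 in CPM and the others 0.572 to 0.619.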

How the results depend on the processing

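No alternative called any of the 10 genes, any of the 29 tested hair bundle genes or any channel gene relative, in 22 settings each. Of the 10 log2 fold changes, those of Tmc1, Tmc2, Tmie, Lhfpl5, Cib2 and Pcdh15 kept their sign in all 20 settings. The hair cell score as a covariate gave 0.0629 for Tomt and moved the median of the 10 genes to 0.0101. The sex score gave -0.13 for Cdh23, and the stria score -0.0384 for Cdh23 and -0.11 for Ush1c. With 1 library left out Cdh23 ran from -0.0298 (without wildtype library 2) to 0.13. Ush1g ran from -0.14 (without knockout-labelled library 2) to 0.31, with -0.00332 without wildtype library 4, and could not be tested under the stricter filter. The cause was not tested.

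Over the whole table, 7 genes were called higher and 12 lower. The count higher was 4 with library totals only, 4 with the hair cell score, 3 with the replicate block and 2 at a threshold of 0.01. Counts higher and lower were 12 and 24 with no filter, 36 and 50 with DESeq2, 2 and 7 given the sex score, 1 and 7 given the stria score, and 2 and 7 without the wildtype libraries 1 and 3. With 1 library left out they ran from 2 to 7 and from 8 to 20.

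The labels do not say whether the replicate numbers pair the libraries. The correlation of deviations from the group mean, across genes, was 0.11, 0.21, -0.28 and -0.14 for the pairs 1 to 4. Among the wildtype libraries, knockout-labelled libraries 1 and 2 correlated best with that of their own number, and 3 and 4 did not. Such correlations cannot show whether the libraries were paired. With the replicate block the log2 fold change was -0.46 for Tmc2, 0.18 for Pcdh15 and -0.20 for Cib2 (adjusted p = 0.705 for each by edgeR). Unadjusted p by edgeR was 0.04997, 0.0452 and 0.0255 in that order, and the rest of the 10 were not under 0.05. Depth limits Ush1g, Tmc1 and Tomt, whose counts were at most 115 in any library. Scatter beyond counting adds to this for Ush1g, with a coefficient of variation of 37.6% under the knockout label against 15.7% from counting alone. Tomt had 26.8% in wildtype, but 9.99% under the knockout label, against 11.2% from counting.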

Other observations

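Relatives of the channel and partner genes were read in the same libraries, from a list of 15 of which 13 were tested. None was called by edgeR, DESeq2 or limma-voom, and 1 of 13, 1 of 15 and 0 of 13 had an unadjusted p under 0.05, beside 7.55%, 4.9% and 7.57% of all genes. Members of the TMC family that are not part of the hair cell channel were counted in both groups. Tmc6 had 30.2 CPM in wildtype and 29.9 CPM under the knockout label, Tmc7 11.8 and 12.9 CPM and Tmc4 10.1 and 9.85 CPM. The smallest p belonged to Tmc5, with 4.86, 3.06, 3.48 and 5.53 CPM in wildtype and 3.53, 3.21, 3.20 and 2.65 CPM under the knockout label, for which edgeR gave -0.43 ± 0.19 (SE) on the log2 scale, adjusted p = 0.647. Of the LHFPL family, Lhfpl2 had 168 ± 13.3 and 154 ± 5.93 CPM (SD, 4 libraries each), with a log2 fold change of -0.12 ± 0.06, and Lhfpl3 had -0.44 ± 0.30 from 0.622 ± 0.207 CPM in wildtype.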
